A study of Mus musculus with 2 samples.

Results

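Peaks of the transcription factor MEF2A at promoters of low GC content were examined in CH12.LX cells. A peak was counted as one when its summit lay within 1 kb of the transcription start site (TSS) of a protein-coding GENCODE vM1 transcript and the mm9 sequence reaching 500 bp to each side of the nearest such TSS had a GC content below 55%. This rule took 1148 of the 16839 peaks in the mm9 list, next to 1071 genes. They were 31.8% of the 3614 promoter peaks (95% Wilson interval 30.3 to 33.3%). The rule used sequence and position only and no measured signal. The other 2466 promoter peaks, at high-GC promoters, and the 13225 distal peaks, over 1 kb from every such TSS, were the sets compared with them.

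CH12.LX is an immortalized mouse B-cell lymphoma line from strain B10.H-2aH-4bp/Wts, female, and chromatin was precipitated with an antibody against MEF2A in 2 biological replicates that form 1 group. The samples analysed here include no treatment or second condition. The mm9 list was made by the authors from both replicates, so a p-value over its peaks describes this list and not the spread between cultures. Read depth is unknown, and neighbouring peaks are not independent.

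MEF2A belongs to the MADS-box family and binds an AT-rich element, named the MEF2 element, as a dimer. In lymphocytes MEF2 factors are known to act with class IIa histone deacetylases and calcium signalling, and MEF2 proteins take part in B cell development and proliferation. Most mammalian promoters are CpG islands with high GC content and dispersed start sites, whereas promoters of low GC content more often belong to tissue-restricted and inducible genes. A promoter below the threshold may still keep many CpG dinucleotides, as described further on.

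The sequences below are chosen examples and do not represent all members, most of which lack the MEF2 element at the summit. They were read from mm9 (NCBIM37) on the sense strand of the nearest gene, 5′ to 3′. Each spans 50 bp on each side of its summit, shortened where an annotated exon begins. The first set shows MEF2 elements, in capitals, in strong low-GC promoter peaks. In Slco5a1, Fam3c, Camk2b, Nek8, Arid4a and Glrp1 the element has the strict form, which begins with CTA and ends with TAG. In Tnfrsf13b, Srpk3 and Ccr7 it has the looser form, in which the last base differs.
Slco5a1 (chr1:12981655-12981755, minus strand): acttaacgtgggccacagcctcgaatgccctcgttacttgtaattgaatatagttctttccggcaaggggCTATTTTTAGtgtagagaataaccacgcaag
Fam3c (chr6:22280342-22280442, minus strand): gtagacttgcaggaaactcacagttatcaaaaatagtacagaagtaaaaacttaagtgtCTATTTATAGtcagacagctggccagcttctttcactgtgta
Camk2b (chr11:5900631-5900731, minus strand): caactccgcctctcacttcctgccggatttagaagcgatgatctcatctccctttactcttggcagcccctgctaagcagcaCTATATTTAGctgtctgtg
Nek8 (chr11:77989380-77989480, minus strand): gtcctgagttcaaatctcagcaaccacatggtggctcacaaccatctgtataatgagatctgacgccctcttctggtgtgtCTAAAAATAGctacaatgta
Arid4a (chr12:72149689-72149789, plus strand): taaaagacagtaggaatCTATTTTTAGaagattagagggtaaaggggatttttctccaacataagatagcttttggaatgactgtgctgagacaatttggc
Glrp1 (chr1:90406525-90406625, minus strand): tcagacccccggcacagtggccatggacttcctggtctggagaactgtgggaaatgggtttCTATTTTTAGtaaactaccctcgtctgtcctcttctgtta
Tnfrsf13b (chr11:60940191-60940256, plus strand): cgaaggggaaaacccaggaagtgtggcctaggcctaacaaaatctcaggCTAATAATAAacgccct
Srpk3 (chrX:71019641-71019741, plus strand): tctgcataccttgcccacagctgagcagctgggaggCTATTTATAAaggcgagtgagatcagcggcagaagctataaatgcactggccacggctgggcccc
Ccr7 (chr11:99016767-99016867, minus strand): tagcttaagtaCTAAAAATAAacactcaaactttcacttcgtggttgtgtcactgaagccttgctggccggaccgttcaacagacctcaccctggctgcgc

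The next set shows low-GC promoters of lymphoid and immune genes without the MEF2 element at the summit. Capitals mark exact matches to the octamer in Cd86, the ETS-IRF composite in Dapp1 and Ciita, PU.1 and the interferon-stimulated response element (ISRE) in Cd69, NF-kB in Ccl22, and the ISRE in Gbp7. The Cd180 window holds none of the motifs searched and is shown because it is the strongest peak among B cell genes.
Cd180 (chr13:103483496-103483596, plus strand): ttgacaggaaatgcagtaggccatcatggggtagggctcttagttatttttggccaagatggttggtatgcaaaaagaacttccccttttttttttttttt
Cd86 (chr16:36641965-36642065, minus strand): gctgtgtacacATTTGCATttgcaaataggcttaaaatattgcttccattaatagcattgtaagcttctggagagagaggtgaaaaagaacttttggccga
Dapp1 (chr3:137644510-137644570, minus strand): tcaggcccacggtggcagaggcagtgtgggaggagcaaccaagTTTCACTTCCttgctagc
Ciita (chr16:10488165-10488265, plus strand): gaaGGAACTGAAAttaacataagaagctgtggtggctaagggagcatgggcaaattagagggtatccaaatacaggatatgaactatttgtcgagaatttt
Cd69 (chr6:129225984-129226084, minus strand): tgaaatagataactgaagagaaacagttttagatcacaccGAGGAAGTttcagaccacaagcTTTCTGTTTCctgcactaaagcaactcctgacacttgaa
Ccl22 (chr8:97269375-97269475, plus strand): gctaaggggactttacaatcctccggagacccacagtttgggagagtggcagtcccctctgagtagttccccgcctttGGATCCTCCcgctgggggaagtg
Gbp7 (chr3:142193208-142193301, plus strand): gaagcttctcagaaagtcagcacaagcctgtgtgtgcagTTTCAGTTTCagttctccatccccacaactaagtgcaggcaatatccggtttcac

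The last set shows the ETS motif, in capitals, in CpG-rich members of the low-GC class. These are the 3 strongest such peaks whose match lies outside annotated exons.
Aaas (chr15:102181191-102181238, minus strand): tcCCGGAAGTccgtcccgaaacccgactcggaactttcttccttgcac
Rfc4 (chr16:23127811-23127857, minus strand): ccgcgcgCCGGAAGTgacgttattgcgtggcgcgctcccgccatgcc
Pigc (chr1:163899280-163899316, plus strand): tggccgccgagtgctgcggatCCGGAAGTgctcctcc

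Low-GC promoters carried a MEF2A peak less often than high-GC promoters, but their peaks were more often strong than those at high-GC promoters. By the outermost TSS of each gene, 999 of 11314 low-GC genes (8.83%) had a summit within 1 kb, against 2365 of 11064 high-GC genes (21.4%; two-sided Fisher's exact test, p = 2.45e-155). The low-GC genes include 1112 olfactory and 327 vomeronasal receptor genes. Without receptor genes of these families the shares were 10.1% of low-GC and 21.4% of high-GC genes (Fisher's exact test, p = 5.50e-112). The share of genes with a peak climbed with promoter GC content, with 1.09% below 40% GC, 2.64% from 40 to 45%, 7.54% from 45 to 50% and 17.0% from 50 to 55%. Above the threshold it was 22.7% from 55 to 60%, 21.8% from 60 to 65% and 18.9% at 65% or more. The 17.0% just below the threshold lies nearer to the 22.7% just above it than to the 1.09% of the lowest bin.

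The signal of a peak is the authors' value, on a scale set by their call, and it was used only to rank peaks within the list. Low-GC promoter peaks had a median signal of 57.3 (range 39.2 to 697), against 53.5 at high-GC promoters and 65.2 in distal peaks. Of the low-GC promoter peaks, 148 (12.9%) were in the strongest 20% of the list, against 159 (6.45%) of the high-GC promoter peaks (Fisher's exact test, Benjamini-Hochberg adjusted p = 1.06e-09 over 6 comparisons; difference 6.44 points, 95% interval 4.35 to 8.70). Both shares were below the 20% of the whole list, and distal peaks had the highest median signal. By promoter GC content the share in the strongest 20% was 27% below 40%, 17.0% from 40 to 45%, 15.7% from 45 to 50% and 10.5% from 50 to 55%. It was 6.65%, 6.59% and 5.94% in the 3 bins above the threshold. The lowest bin holds only 37 peaks, and its interval runs from 15.4 to 43.0%. With GC content taken over 1 kb to each side of the TSS, which puts 64.7% of promoter peaks into the low-GC class, the shares were 9.02% and 7.53% (Fisher's exact test, adjusted p = 0.134).

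**Figure D1:**
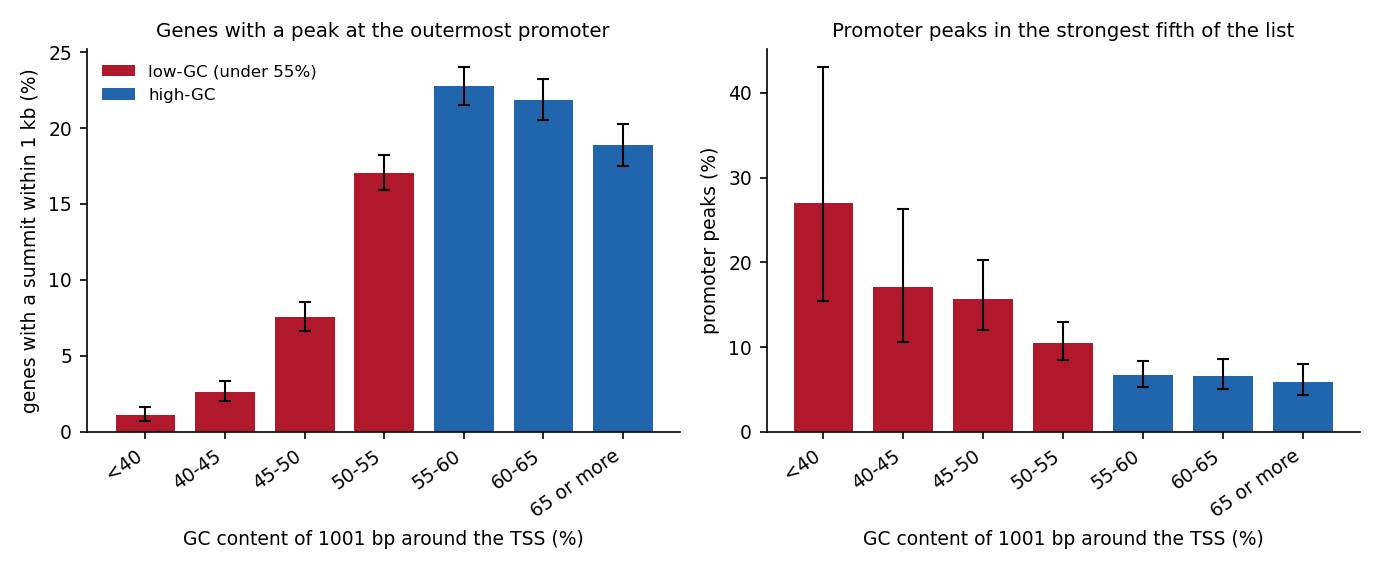
The left panel shows the percentage of protein-coding genes with a summit within 1 kb of the outermost TSS, and the right panel the percentage of promoter peaks in the strongest 20% of the list, both by GC content within 500 bp of the TSS; red bins are low-GC, blue bins are high-GC, and bars are 95% Wilson intervals. Genes with a peak make up 1.09% of the lowest bin and 22.7% of the bin from 55 to 60%, while strong peaks make up 27% of the lowest bin and 5.94% of the highest.

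The 20 strongest low-GC promoter peaks lay next to genes of several kinds. Immune genes among them were Cd180, a Toll-like receptor relative of B cells (signal 553, rank 149 in the list), Tnfrsf13b, the TACI receptor for BAFF and APRIL (439, rank 273), Irak2, a kinase of Toll-like receptor signalling (430, rank 289), Cd86, a costimulatory ligand (367, rank 404), and Ptprc, the CD45 phosphatase (298, rank 612). The strongest of all was next to Kcnmb3, a beta subunit of BK potassium channels, with signal 697 at rank 68. Rab30, a Golgi GTPase (589), Slco5a1, a solute carrier (516), Fam3c, a secreted protein (499), Atp6v0a1, a subunit of the vacuolar proton pump (493), and Ccdc80, a secreted matrix protein (466), followed. Sil1, an exchange factor of the chaperone BiP, had signal 433 and Plscr1, an interferon-inducible scramblase, 423. The rest were at A930003A15Rik, Apcs, 1110002E22Rik, Gm9953, Dusp14, Srpk3 and Cdyl, with signals from 294 to 370. Srpk3 encodes a kinase of striated muscle and is known there as a MEF2 target.

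Only 5 of these 20 peaks could be matched to mm10 by their summit sequence, and both replicates placed those 5 high. For the others, the strongest of all among them, the replicates could not be compared. In the optimal set of peaks kept by the irreproducible discovery rate (IDR) procedure, the Cd180 peak was rank 97, with rank 131 in replicate 1 and rank 95 in replicate 2. Tnfrsf13b was rank 393 in replicate 1 and rank 316 in replicate 2. A930003A15Rik was rank 494 in replicate 1 and rank 259 in replicate 2. Srpk3 was rank 641 in replicate 1 and rank 435 in replicate 2, and Ptprc was rank 826 in replicate 1 and rank 546 in replicate 2. Each replicate list holds 300000 intervals, so all of these are near its top.

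Summits of low-GC promoter peaks lay downstream of the TSS more often than those of high-GC ones, and more often at an internal start site of the gene. Of them, 646 (56.3%) had the summit within 100 bp of the TSS, against 1367 (55.4%) at high-GC promoters (Fisher's exact test, adjusted p = 0.640; difference 0.838 points, 95% interval -2.65 to 4.3). That comparison depends on the threshold. With the GC threshold at 50% the difference was -12.1 points (adjusted p = 6.79e-06), at 60% it was 9.14 points (adjusted p = 2.23e-07), and with GC content over 1 kb to each side it was 15.5 points (Fisher's exact test, adjusted p = 2.00e-18). The summit was upstream of the TSS in 701 low-GC promoter peaks (61.1%), against 69.5% of high-GC ones (Fisher's exact test, adjusted p = 1.31e-06). Summits 200 to 500 bp downstream of the TSS are visible in the position plot, with 2.53, 2.44 and 2.79% of low-GC promoter peaks in the 3 bins, against 1.30, 0.933 and 0.892% of high-GC ones. By annotation, 483 low-GC summits (42.1%) were intergenic, 308 (26.8%) intronic, 302 (26.3%) in untranslated exon sequence and 55 (4.79%) in coding exons.

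An alternative TSS is meant here as one over 1 kb from the outermost TSS of its gene. It was the nearest TSS of 235 low-GC promoter peaks (20.5%), against 216 high-GC ones (8.76%; Fisher's exact test, adjusted p = 4.78e-21; difference 11.7 points, 95% interval 9.18 to 14.4). The share of alternative TSSs among all annotated TSSs of each GC or CpG class was not compared, so these shares describe peaks only. The median distance of the 235 from the outermost TSS was 23051 bp. In 145 of the 235 (61.7%) the outermost promoter of the gene was itself high-GC. In 47 of these 145 (32.4%) a summit lay within 1 kb of that outermost TSS, a count that did not exclude the member itself. Among the 20 strongest members, those at an alternative TSS were Rab30 (78317 bp from the outermost TSS), Fam3c (26787 bp), Irak2 (30383 bp), Cd86 (23272 bp), Cdyl, a chromodomain protein (154886 bp), and Dusp14 (2181 bp). Nfkb1, which encodes the p105 and p50 NF-kB proteins, had its low-GC peak at a start site 83276 bp from the outermost one, and Camk2b, a calcium/calmodulin-dependent kinase, at one 65299 bp away.

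Low-GC promoter peaks had another peak within 10 kb in 480 cases (41.8%), against 36.7% of high-GC ones (Fisher's exact test, adjusted p = 0.00553; difference 5.11 points). This did not hold within 20 kb (difference 2.93 points, adjusted p = 0.129), among the stronger 50% of peaks (4.28 points, adjusted p = 0.204) or at a GC threshold of 60% (0.653 points, adjusted p = 0.841), and with GC content over 1 kb to each side it turned to -7.68 points (Fisher's exact test, adjusted p = 1.92e-05). Of the genes, 3 had 3 low-GC promoter peaks each and 71 had 2. Those with 3 were Arhgdib, Dusp14, a dual-specificity phosphatase, and Laptm5, a lysosomal membrane protein of lymphocytes. The Dusp14 peaks had signals of 303, 100.98 and 59.7, those of Laptm5 139, 49.4 and 47.8, and those of Arhgdib 65.8, 52.9 and 40.3.

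**Figure D2:**
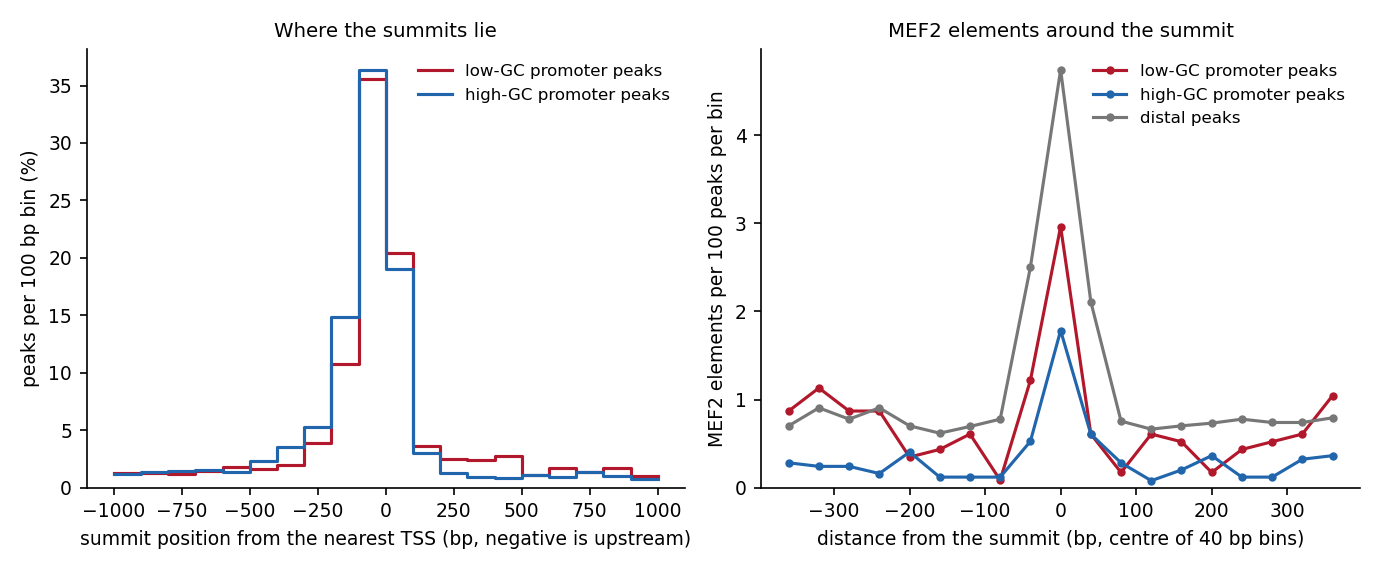
The left panel shows the summit position relative to the nearest TSS in 100 bp bins as a percentage of low-GC promoter peaks (red) and high-GC promoter peaks (blue); the right panel shows MEF2 elements per 100 peaks in 40 bp bins around the summit, with distal peaks in grey. The central bin holds 2.96 elements per 100 low-GC promoter peaks, 1.78 per 100 high-GC promoter peaks and 4.74 per 100 distal peaks.

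The MEF2 element lay within 50 bp of the summit in 49 low-GC promoter peaks (4.27%, 95% Wilson interval 3.24 to 5.60%), and the other members had no match to it there. It was searched on both strands by exact match to its consensus, so weaker sites were not counted. The flank window 300 bp towards lower coordinates held it in 25 of the same peaks (2.18%) and the window 300 bp towards higher coordinates in 14 (1.22%). Of the peaks that differed, 48 had the element only at the summit and 24 only in the lower flank (two-sided exact McNemar test, p = 0.00631), and 48 only at the summit against 13 only in the higher flank (p = 7.67e-06). The strict form was at the summit of 24 low-GC promoter peaks and in 0 of either flank window. For the bare core of the element the difference from the lower flank was 0.61 points (exact McNemar test, p = 0.6).

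Where the element was present within the 50 bp searched, its median distance from the summit was 14.0 bp, and it lay within 20 bp in 35 of the 49 peaks (71.4%). High-GC promoter peaks had a median of 14.5 bp with 68.2% within 20 bp, and distal peaks 17.0 bp with 57.9%. The 49 peaks held 19 different spellings. The most common was CTAAAAATAG, in 11 of the 49 low-GC promoter peaks (22.4%), as in the Nek8 window above and, read from the other strand, in those of Slco5a1, Arid4a and Glrp1. It was also the most common in high-GC promoter peaks (20 of 66, 30.3%) and in distal peaks (183 of 1086, 16.9%). CTAAAAATAA, as in Ccr7, followed with 5 low-GC promoter peaks. The strict form made up 24 of the 49 (49.0%), against 41 of 66 (62.1%) at high-GC promoters and 548 of 1086 (50.5%) in distal peaks. Where the element reads CTATAAATAG or the like it also contains the letters TATAAA of the TATA motif, as in Fam3c and Srpk3.

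Strong low-GC promoter peaks had the element more often than weak ones. With the members cut by signal into 4 groups of 287, strongest first, it was present in 27 (9.41%), 5 (1.74%), 9 (3.14%) and 8 (2.79%). The strongest group exceeded the weakest by 6.62 points (p = 0.00135 by Fisher's exact test), and the other 3 groups did not form a gradient. The 10 strongest with the strict form were next to Slco5a1, Fam3c, Ccdc80, Sil1, Crem, Camk2b, A430110L20Rik, Nek8, Arid4a and Glrp1, with signals from 169 to 516. Crem encodes a cAMP-responsive transcription factor with well-known internal promoters, and its peak (signal 288) lay at a start site 56670 bp from the outermost one.

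Against high-GC promoter peaks, in which 66 of 2466 (2.68%) held the element, the low-GC share was higher by 1.59 points (Fisher's exact test, adjusted p = 0.0171; 95% interval 0.343 to 3.04). The difference was 0.428 points for the strict form (adjusted p = 0.504), 0.156 points among the stronger 50% of peaks (6.11% and 5.95%, adjusted p = 1) and 0.0546 points at a GC threshold of 60% (Fisher's exact test, adjusted p = 1), and with GC content over 1 kb to each side it was -1.02 points (adjusted p = 0.134). The GC content of the summit window itself differed between the sets, with a mean of 54.8% at low-GC promoters, 64.2% at high-GC promoters and 47.7% in distal peaks. Among peaks whose summit window had a GC content of 45 to 55%, the element was in 6.35% of low-GC promoter peaks and 7.43% of high-GC ones (difference -1.08 points, Fisher's exact test, p = 0.799). Distal peaks held the element in 8.21%, and the low-GC share differed by -3.94 points (Fisher's exact test, p = 4.45e-07). In the same summit GC range that difference was 0.484 points (6.35% and 5.87%, Fisher's exact test, p = 0.647), and with the GC threshold at 50% it was -1.61 points (p = 0.279). Relative to both flanks together, the summit share was 2.51-fold higher at low-GC promoters, 5.28-fold at high-GC promoters and 4.70-fold in distal peaks, with flank shares of 1.70%, 0.507% and 1.75%. The difference between these folds was not tested.

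In windows of the same length centred on the TSS and not on the summit, the MEF2 element was in 0.869% of low-GC TSS windows with a peak and 0.807% of those without, and 0.502% of all 45981 protein-coding TSS windows held it. The ETS motif was in 9.03% of low-GC TSS windows with a peak and 1.12% of those without, NRF1 in 3.52% and 0.797%, and CRE in 2.32% and 0.507%. Other motifs were less frequent at low-GC TSSs with a peak, among them the CCAAT box (10.8% with a peak and 13.5% without), GATA (4.10% and 7.27%), TEAD (3.23% and 5.53%) and AP-1 (1.35% and 1.83%). At high-GC TSSs the ETS motif was in 6.21% of windows with a peak and 2.75% of those without, and NRF1 in 6.15% and 4.17%. These shares were not tested, and TSSs with and without a peak were not matched for GC or CpG content. Within the low-GC class the share of genes with a peak climbed with GC content, as given above. The ETS, NRF1 and CRE motifs contain a CpG. The letters TATAAA or TATATA were also searched between 40 and 15 bp upstream of the TSS. Either was in 1.64% of low-GC TSSs with a peak (95% interval 1.18 to 2.28%) and 3.55% of those without (3.30 to 3.81%). High-GC TSSs had either in 0.967% with a peak and 1.02% without.

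The members differed widely in CpG content, which the rule did not use directly. The ratio of observed to expected CpG within 500 bp of the TSS was above 0.6 in 487 members (42.4%), from 0.35 to 0.6 in 282 (24.6%) and under 0.35 in 379 (33.0%), cut points that were chosen after the data were seen. Promoter GC content, which the rule did use, averaged 52.3%, 49.98% and 48.0% in these 3 classes, and its part in the differences between them was not tested. CpG-poor members were the stronger, with 22.2% of them in the strongest 20% of the list against 6.37% of CpG-rich members (p = 1.62e-11, the first of 4 unadjusted Fisher's exact tests). The MEF2 element was in 6.86% of CpG-poor and 1.85% of CpG-rich members (exact test, p = 0.000347). The nearest TSS was an alternative one in 40.1% of CpG-poor against 5.34% of CpG-rich members (exact test, p = 8.60e-38). The summit was within 100 bp of the TSS in 36.9% of CpG-poor and 72.7% of CpG-rich members (exact test, p = 3.80e-26). High-GC promoter peaks had 6.45% in the strongest 20%, close to the 6.37% of CpG-rich members, and that pair was not tested.

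Shares of some motifs at the summit are given for the same classes, with no test. The EBF1, NFAT and E2A motifs were among those not counted by class. CpG-poor members held the NF-kB motif in 15.8%, AP-1 in 7.39%, PU.1 in 6.33%, the ETS-IRF composite in 6.07%, the ISRE in 5.54% and the octamer in 4.22%. In CpG-rich members the same motifs were in 9.24%, 1.44%, 1.64%, 1.44%, 1.23% and 0.411%, and in the middle class 14.2%, 4.61%, 2.13%, 3.19%, 2.13% and 2.13%. The ETS motif was in 1 CpG-poor member (0.264%), 12 of the middle class (4.26%) and 58 CpG-rich members (11.9%). NRF1 was in 0 CpG-poor and 25 CpG-rich members (5.13%), and CRE in 1 (0.264%) and 19 (3.9%). The CCAAT box of NF-Y was in 11.1% of CpG-poor and 13.1% of CpG-rich members. The ETS, NRF1 and CRE motifs contain a CpG themselves, and the classes are defined by CpG content.

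**Figure D3:**
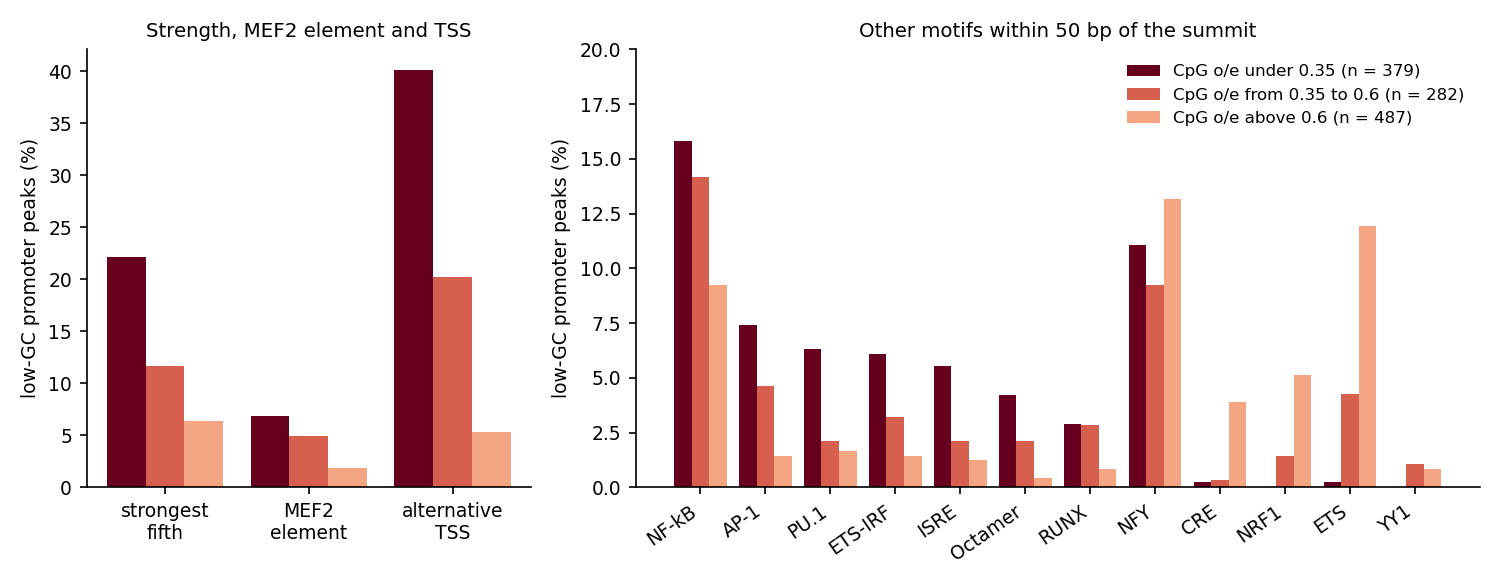
Low-GC promoter peaks by the ratio of observed to expected CpG of the promoter. The left panel shows the percentage of peaks in the strongest 20% of the list, with a MEF2 element and at an alternative TSS. The right panel shows the percentage with each motif counted by class, within 50 bp of the summit. The 379 CpG-poor members lead in strength (22.2%), in MEF2 elements (6.86%) and in the NF-kB, AP-1, PU.1, ETS-IRF, ISRE and octamer motifs. The 487 CpG-rich members lead in ETS (11.9%), NRF1 (5.13%) and CRE (3.9%), and no error bars are drawn.

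Other motifs were compared between the sets within 50 bp of the summit, on both strands and by exact match. Of 26 motifs, 16 (61.5%) differed between low-GC and high-GC promoter peaks at a Benjamini-Hochberg adjusted p under 0.05 (Fisher's exact test), 10 higher and 6 lower. Among the 10 were motifs of lymphoid factors, namely PU.1 (GAGGAAGT), in 3.31% against 1.34%, the ETS-IRF composite, in which GGAA and GAAA stand 2 bases apart, in 3.40% against 1.42%, and the ISRE, with GAAA in place of GGAA, in 2.87% against 1.05%. The octamer (ATGCAAAT) was in 2.09% against 0.811%, RUNX (TGTGGTTA or TGTGGTTT) in 2.00% against 0.608%, STAT (TTCNNNGAA) in 4.27% against 1.70% and AP-1 (TGACTCA or TGAGTCA) in 4.18% against 2.35%. The remaining 3 were NFAT (GGAAAA), in 9.15% against 6.57%, the motif of GATA factors (AGATAA or TGATAA), in 3.05% against 1.70%, and the TATA box (TATAAA), in 4.01% against 2.11%. Lower at low-GC promoters were the GC box (GGGGCGGGG), in 1.48% against 5.39%, EGR (GCGTGGGCG or GCGGGGGCG), in 0.348% against 1.74%, the MYC and USF E-box (CACGTG), in 3.22% against 6.16%, NRF1 in 2.53% against 4.58%, EBF1 (CCCNNGGG), in 4.97% against 7.79%, and NF-kB, in 12.6% against 16.7%. The ETS motif (CCGGAAGT) was in 6.18% of low-GC and 6.12% of high-GC promoter peaks (exact test, adjusted p = 0.978), and the CCAAT box in 11.5% and 9.21% (adjusted p = 0.0526). As a scale, of all protein-coding TSS windows of the same length 1.15% held PU.1, 0.759% ETS-IRF, 1.11% the ISRE, 0.313% the octamer, 2.69% ETS, 11% NF-kB and 11.6% the CCAAT box. The same windows held RUNX in 0.587%, STAT in 2.23%, AP-1 in 1.24%, NFAT in 7.19%, GATA in 4.19%, TATAAA in 3.95%, the GC box in 5.82%, EGR in 1.77%, the MYC and USF E-box in 2.93%, NRF1 in 2.84%, EBF1 in 5.11%, CRE in 1.01%, YY1 in 0.663% and the E2A E-box in 6.75%. Windows at low-GC TSSs alone held some of these more often, with NFAT in 9.84%, GATA in 6.99%, TATAAA in 6.22% and STAT in 3.22%. The shares at low-GC summits of NFAT (9.15%), GATA (3.05%) and TATAAA (4.01%) were below those values and that of STAT (4.27%) above, with no test. Low-GC TSS windows held PU.1 in 1.43%, ETS-IRF in 1.08%, the ISRE in 1.69%, the octamer in 0.431%, RUNX in 0.988% and AP-1 in 1.79%. The shares of these motifs at low-GC summits were above those values, also with no test.

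PU.1, ETS, ETS-IRF and NFAT motifs share the letters GGAA, and ETS-IRF and ISRE share GAAA, so one stretch can count for more than one of them. The mean GC content of the summit window differed between the sets, as given above. Among the 362 low-GC and 323 high-GC promoter peaks with a summit window of 45 to 55% GC, 0 of 26 motifs passed (Fisher's exact test, 1 at an unadjusted p under 0.05), and STAT had the largest gap there, with 6.08% against 2.17% (adjusted p = 0.332). Fewer peaks entered that comparison. Among the stronger 50% of peaks 10 motifs passed.

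Against distal peaks, 17 of the 26 motifs (65.4%) differed, 8 higher and 9 lower at low-GC promoters. Promoter motifs were the higher ones, with ETS in 6.18% against 0.371%, NRF1 in 2.53% against 0.0756% and YY1 in 0.610% against 0.00756% (Fisher's exact test, adjusted p = 1.17e-45, 4.01e-23 and 9.87e-07). The GC box was in 1.48% against 0.363%, CRE (TGACGTCA) in 1.83% against 0.650% (exact test, adjusted p = 0.000311) and EGR in 0.348% against 0.0681%. The MYC and USF E-box (3.22% against 1.92%) and the CCAAT box (11.5% against 9.35%) were also higher. Lower were AP-1, in 4.18% against 12.8% (exact test, adjusted p = 6.27e-21), RUNX, in 2.00% against 4.79%, GATA, in 3.05% against 5.73%, and the E2A E-box (CAGCTG), in 6.79% against 10.1%. The octamer (2.09% against 3.64%), ETS-IRF (3.40% against 5.04%) and NFAT (9.15% against 12.2%) were lower too, as were EBF1 (4.97% against 6.78%) and CTCF (0.523% against 1.40%). AP-1, RUNX, GATA, the octamer, ETS-IRF and NFAT were thus higher than in high-GC promoter peaks but lower than in distal peaks. Within the summit range of 45 to 55% GC, 2 of these calls were made, ETS in 3.04% against 0.370% and AP-1 in 5.52% against 13.3%, in 362 low-GC promoter peaks and 5946 distal peaks. With the GC threshold at 50%, or among the stronger 50% of peaks, 4 motifs passed. Low-GC promoter peaks without a match to any of 14 elements, MEF2 and 13 of the others, numbered 526 (45.8%), against 51.6% of high-GC promoter peaks and 33.4% of distal peaks.

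Many B cell identity genes with a low-GC promoter had a peak. Lists were read against the 8.83% of all low-GC genes that had one, beside the 21.4% of high-GC genes, and no list was tested. Each count is over genes whose outermost promoter is low-GC, whereas the peaks named are the strongest members whose nearest TSS of any kind belongs to the list, so a named gene is not always among those counted. Of the 21 B cell identity genes with a low-GC outermost promoter, 13 (61.9%) had a summit within 1 kb, and of its 15 high-GC genes 6 had one. The strongest were Cd180 (signal 553, summit 92 bp upstream of the TSS), Tnfrsf13b (439, 16 bp upstream), Ms4a1, which encodes CD20 (222, 126 bp upstream), and Cd53, a leukocyte tetraspanin (195, 33 bp downstream). Cd79b, the Ig-beta chain of the B cell receptor, had signal 148, and its window held the octamer and the EBF1 motif; this gene was named after its values were seen. Of the 13 B cell receptor signalling genes of the class, 5 (38.5%) had a peak, and of the 17 high-GC genes of the list 10 (58.8%). The strongest members were at the adaptor Dapp1 (100.7) and the phosphatase Inpp5d (94.7), with the adaptor Blnk at 79.9 and the kinase Pik3cd at 73.1. Genes of germinal centre and plasma cells had 2 of 11 (18.2%) in the low-GC class and 3 of 9 (33.3%) in the high-GC class, and Igj (89.7), Prdm1 (75.5) and Xbp1 (74.4) had the members of that list. Blnk differed between the replicates, with rank 18759 in replicate 1 and rank 3841 in replicate 2.

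Interferon-stimulated genes, of which 44 of 47 annotated have a low-GC outermost promoter, had a peak in 20 (45.5%, 95% interval 31.7 to 59.9%). The strongest were Gbp3, a guanylate-binding protein (142), Irgm1, an immunity-related GTPase (136), and the schlafen genes Slfn2 (117) and Slfn8 (107). The median best rank of the list's members was 9948, against 9452.5 for all members. Irgm1 was rank 2087 in replicate 1 and rank 3683 in replicate 2. The ISRE letters lay at the summit in Gbp3 and Irgm1 and not in Slfn2 or Slfn8. Gbp7, shown above with its ISRE and named after its values were seen, had signal 214 and was rank 1063 in replicate 1 and rank 1042 in replicate 2. The schlafen family as such had 4 of 9 (44.4%), with Slfn3 (121) the strongest, and Slfn2 and Slfn8 stand in both lists. The GIMAP GTPases, a lymphocyte family in 1 cluster, had 4 of 8, with Gimap6 (177) far above Gimap9 (66.9), Gimap5 (66.7) and Gimap8 (39.7).

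Toll-like receptor and NF-kB pathway genes held some of the strongest peaks. Of the 18 Toll-like receptor pathway genes of the class 6 (33.3%) had a peak, and of the 9 high-GC ones 4 (44.4%). The members included Cd180 and its partner Ly86, also called MD-1 (181), and the adaptor Ticam1 (116). Cd180 and Ly86 both had the summit 92 bp upstream of the TSS. Irak2 (430) had its peak at an internal start site. Tlr9 had signal 106, 53 bp upstream of the TSS, with octamer and AP-1 matches, and was named after its values were seen. Of the 6 NF-kB pathway genes of the class 4 (66.7%) had a peak, and of the 16 high-GC ones 8. Nfkbiz, which encodes a nuclear IκB, had signal 285, Birc3, an inhibitor of apoptosis, 133 and Nfkbie, the inhibitor IκBε, 63.4, beside Nfkb1 with 202 at its internal start site. Birc3 and Nfkbie held the NF-kB motif at the summit, and Nfkbiz and Nfkb1 did not. Immediate early genes had 3 of 5, namely Cd69, an activation antigen (118), Zfp36l1 (66.4) and Dusp6 (40.3). The other 33 of the 38 genes of that list have high-GC promoters, and 12 of those (36.4%) had a peak.

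Among genes of antigen presentation, MHC class II presentation had 5 of 15 (33.3%), and the costimulatory ligands Cd86 (367) and Cd80 (134) led it, with Ciita, the class II transactivator (85.3), and H2-DMa (70.9) next. The Cd86 and Ciita peaks lay 23272 and 8034 bp from the outermost TSS. MHC class I presentation had 3 of 10, against 7 of 14 high-GC genes, with Tap2 at 49.6, H2-M3 at 39.4 and B2m at 39.4, close to the lowest signal in the list. Chemokines and their receptors had 7 of 38 (18.4%), against 0 of 10 high-GC genes, and the strongest members were at the homing receptors Ccr7 (188) and Cxcr5 (133), Ccl22 (110) and Cxcl10 (90.5). Adhesion and homing receptors had 6 of 17 (35.3%), against 5 of 9 (55.6%) high-GC genes, with Selplg, the P-selectin ligand (89.8), Gpr18 (66.6), Itgal (66.3) and Cd48 (42.9). Cytokine genes had 5 of 38 (13.2%), with Il4 (135), Il15 (123), Cd70 (107) and Il12a (62.7), and cytokine receptor genes 4 of 18 (22.2%), with Il9r (80.5), Il2rg (71.1), Il2ra (64.3) and Il12rb1 (44.0). The Il9r window held a MEF2 element and NF-kB. Apoptosis genes had 3 of 9 (33.3%), against 7 of 19 (36.8%) high-GC genes, and the members of the list were at Birc3, Casp4 (89.5) and Casp8 (52.7), the last at an internal start site.

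In the low-GC class, lists of genes of other cell types lay near or below the 8.83% of all low-GC genes. T cell genes had 2 of 24 (8.33%), Cd96 (94.7) and Ctla4 (58.9), myeloid genes 1 of 23 (4.35%), Cd68 (77.3), and hepatocyte genes 1 of 19 (5.26%), the clotting factor gene F9 (127). A further myeloid gene, Cybb (50.4), had a low-GC peak at an internal start site. Striated muscle genes, which include known MEF2 targets, had 0 of 23 (Wilson upper bound 14.3%), NK and cytotoxic genes 0 of 17 (18.4%), erythroid and platelet genes 0 of 18 (17.6%), neuronal genes 0 of 10 (27.8%) and keratins 0 of 14 (21.5%). Each of these upper bounds is above 8.83%, so lists of this size do not show fewer peaks than low-GC genes in general. Among high-GC genes, myeloid genes had 2 of 6 (33.3%), erythroid and platelet genes 1 of 4, neuronal genes 2 of 14 and striated muscle genes 2 of 18. T cell genes had 1 of 10 there, hepatocyte genes 0 of 6, NK and cytotoxic genes 0 of 2 and keratins 0 of 15. Camk2a, a neuronal kinase gene, had a low-GC peak at a start site 107 bp from its outermost one (132). Large low-GC families had almost none, with 1 of 1112 olfactory receptor genes (0.0899%; Olfr175-ps1, signal 58.7), 0 of 327 vomeronasal receptor genes, 0 of 71 cytochrome P450 genes, 0 of 53 defensin genes and 0 of 26 serpin B genes. SLAM and Fc receptor genes had 2 of 23 (8.70%), Fcrla (50.5) and Cd48. Siglec and C-type lectin genes had 3 of 26 (11.5%), and the members were at Cd69, Clec2d (72.9), Clec4a1 (41.0) and, at an internal start site, Clec12a (64.0).

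Among families with general functions, zinc finger (Zfp) genes had 30 of 217 (13.8%), against 39 of 154 (25.3%) high-GC genes, led by Zfp93 (137), Zfp708 (114), Zfp52 (104) and Zfp35 (83.3). Zfp708 held a MEF2 element. Ribosomal protein genes had 6 of 77 in the low-GC class (7.79%), against 33 of 67 in the high-GC class (49.3%), and the low-GC peaks were weak, from Rpl27a-ps1 at 53.7 to Rps3 at 45.5, Rps26 at 44.9 and Rpl7l1 at 44.6. Replication-dependent histone genes had 2 of 38 (5.26%), Hist3h2a (61.5) and Hist2h2ac (44.1). Genes of regulators of G protein signalling had 1 of 10, and the MS4A family 1 of 16 (6.25%), Ms4a1. Rgs9 (58.6) and Rgs3 (49.1) were the Rgs genes with a low-GC peak, the second 103775 bp from its outermost TSS and with a MEF2 element. The only Dock gene of the class, Dock2, a Rac activator of lymphocytes, had a peak (81.4). Genes whose symbol begins with Cd and a number had 13 of 73 (17.8%), against 6 of 23 (26.1%) high-GC genes, and beside those given Cd36, a scavenger receptor, had signal 287 at an internal start site. Hdac9, a class IIa deacetylase known to bind MEF2, had signal 128 with the summit 89 bp upstream of its outermost TSS; it was named after its values were seen, and was rank 1746 in replicate 1 and rank 4749 in replicate 2.

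**Figure D4:**
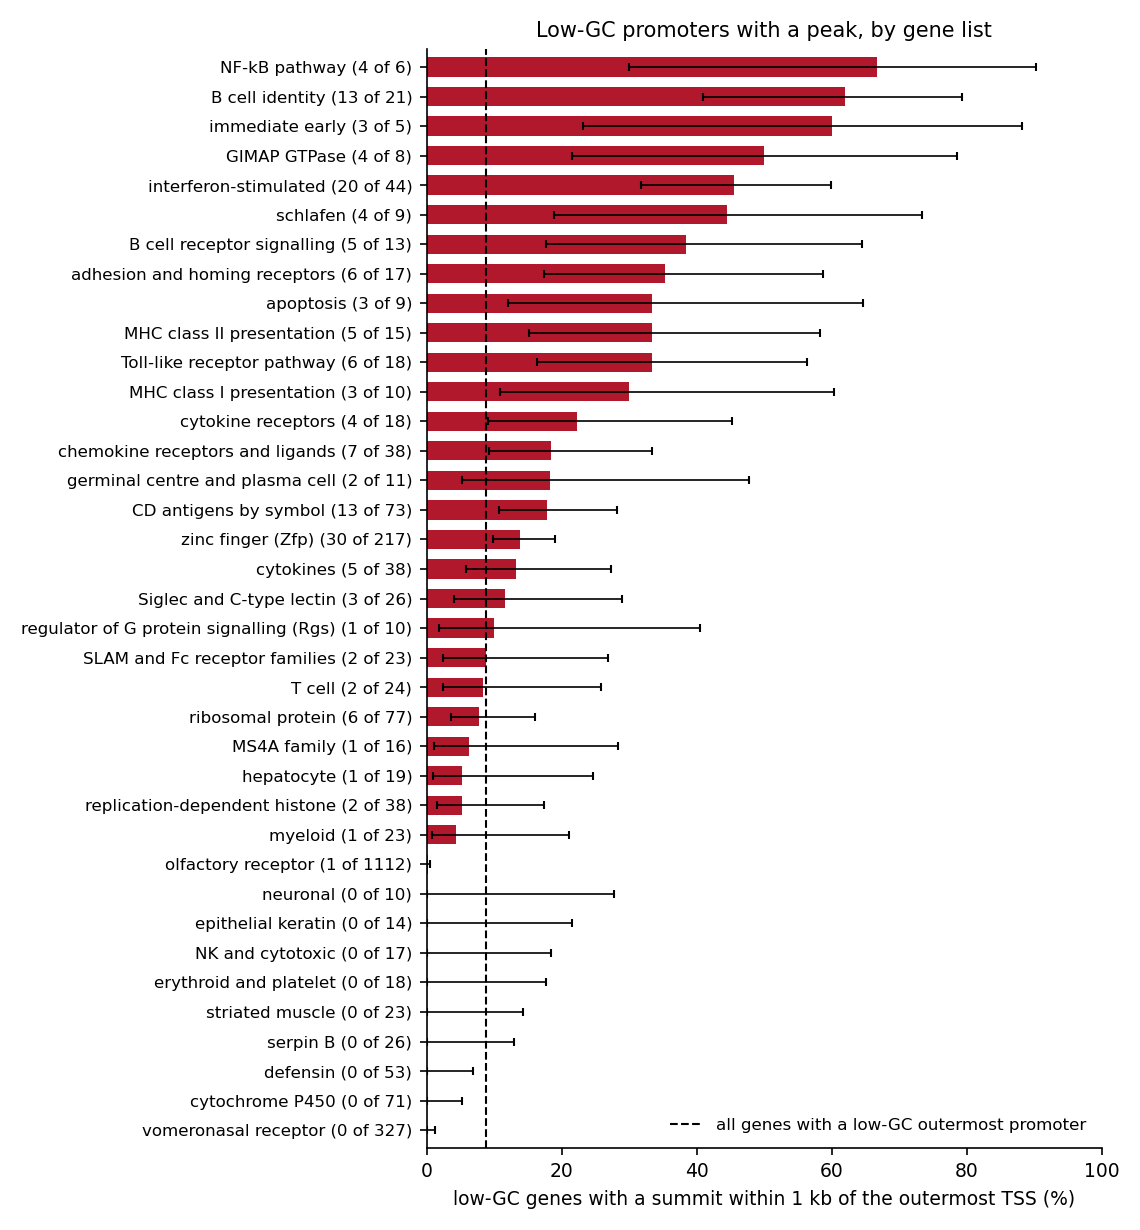
Percentage of genes with a low-GC outermost promoter that had a summit within 1 kb, for each gene list with 5 or more such genes, with the counts beside each name and 95% Wilson intervals; the dashed line is the 8.83% of all low-GC genes. NF-kB pathway (4 of 6) and B cell identity (13 of 21) stand at the top, and vomeronasal receptors (0 of 327) at the bottom.

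The 5 peaked promoters of lowest GC content were those of Olfr175-ps1 and Csn3, each with 33.2%, Pnpla8 (34.5%), Cp (34.8%) and 4930428E23Rik (35.1%). Csn3 encodes kappa-casein and Cp the ferroxidase ceruloplasmin, and their peaks had signals of 90.6 and 57.1. At the other end of the class, the 3 peaks just inside the threshold were 2 at Pou2f2, which encodes the B cell factor OCT2, and 1 at Zfp369, all at 54.9% GC with signals of 40.6 to 41.8. The 3 just outside were at 1700041G16Rik, Tmem39a and Sh2d3c, all at 55.04% with signals of 84.4 to 110. Chromosome 11 held 174 members (15.2%), against 16.1% of high-GC promoter peaks, 12.2% of all peaks and 6.53% of low-GC genes. Without it the difference in the strongest 20% was 6.37 points and that in alternative TSSs 13.4 points.

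The peaks were also looked for in the mm10 lists, which the authors called against a control. These lists come from the same 2 replicates as the mm9 list. High overlap is therefore built in, and it is not independent evidence for the peaks or for the difference between the classes. By gene symbol, 818 of the 1071 genes with a low-GC promoter peak (76.4%) had a RefSeq TSS to search, and 613 of them (74.9%) had an optimal-set summit within 1 kb. Replicate 2 alone, at its 31497 highest-ranked intervals, gave 77.5% and replicate 1 alone 72.9%. Over all matched genes the low-GC class again had a peak less often, with 17.6% of low-GC against 44.7% of high-GC genes in replicate 1 and 17.9% against 42.1% in replicate 2 (Fisher's exact test, p = 5.40e-313 and 1.57e-252). A stricter join, by finding the 51 bp around the mm9 summit once among mm10 RefSeq promoter sequences, placed 459 members (39.98%), and can succeed only where the summit lies close to a RefSeq TSS. Of these 428 (93.2%) overlapped the optimal set, against 92.3% of 1223 matched high-GC promoter peaks (Fisher's exact test, p = 0.602). Both replicates placed 385 (83.9%) among their 31497 highest-ranked intervals, against 82.3% of high-GC ones (exact test, p = 0.470). Replicate 2 alone placed 57 there, replicate 1 alone 14, and neither 3. Over the 443 members found in both replicate lists, the correlation of log2 signal between replicates was 0.526, and it was 0.466 over 1147 high-GC promoter peaks; these are across peaks of shared libraries and carry no test.

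**Figure D5:**
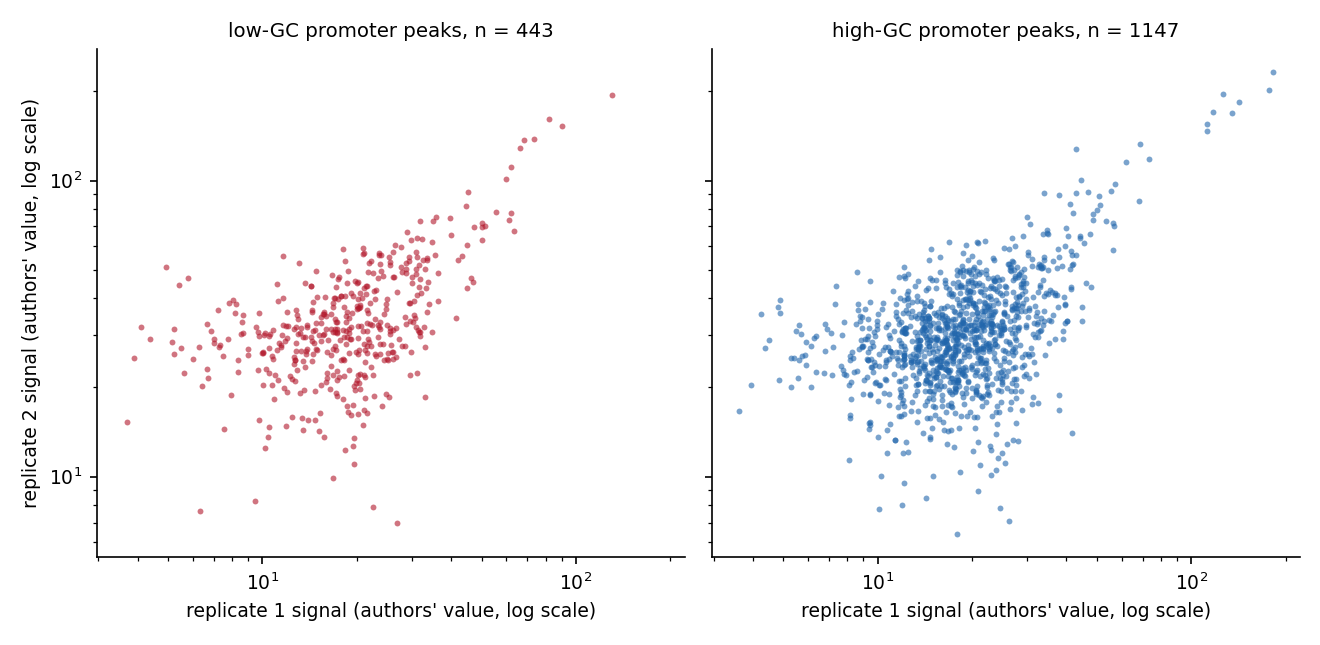
Signal in replicate 2 against signal in replicate 1, as the authors' values on log axes, for low-GC promoter peaks (left, 443 points) and high-GC promoter peaks (right, 1147 points) matched to mm10 by summit sequence and found in both replicate lists. The strongest points lie along a line in both panels and the weaker ones scatter, with a correlation of log2 signal of 0.526 on the left and 0.466 on the right.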

How the data were processed

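MEF2A ChIP-seq peaks of CH12.LX cells were analysed from interval lists. The signal of each peak is the authors' deposited value in the narrowPeak column for signal, and the score used to break ties is the deposited significance value. Per the notes deposited with the files, the mm9 list came from both replicates' alignments, and no control file is named for it. The sources used here give neither aligner nor peak caller, read depth is unknown, and control reads were not analysed here. Replicates enter only through their own mm10 lists of 300000 intervals each, joined to mm9 by gene symbol or by a 51 bp summit sequence, and no coordinate was converted. Genes, start sites and sequence came from GENCODE vM1 and NCBIM37, and mm10 start sites from RefSeq.

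Sets of peaks were compared with the two-sided Fisher's exact test and Benjamini-Hochberg adjustment over 6 properties, or over 26 motifs, and summit with flank by the exact McNemar test (Python 3.11.15, scipy 1.17.1, pandas 2.3.3). Alternative settings are compared in the closing section. Wilson 95% intervals cover counting error over peaks only. Motif searching and testing were checked on simulated data with the same GC content in both sets, which does not cover a difference in base composition. Named genes are the 20 strongest members, the 10 strongest with a strict element, the 5 of lowest GC content, the 3 on each side of the threshold, genes with 3 or more members and the 4 strongest of each list. Members and lists were chosen with earlier results of these data known. Genes stated to be named after their values were seen, and those whose ETS motif is shown, fall outside that rule. A few items, among them a gene list and windows of sequence, are not reported here.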

Additional observations from a re-analysis of the deposited data

How the results depend on the processing

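The share of promoter peaks at low-GC promoters (31.8%) was 33.6% with summits up to 2 kb from the TSS, 30% with outermost TSSs only, 37.4% among the stronger 50% of peaks, 11.7% and 60.5% with the GC threshold at 50% and 60%, and 64.7% with GC content over 1 kb to each side of the TSS. With GC content over that longer stretch, low-GC minus high-GC differences were 1.49 points for the strongest 20% of signal, 15.5 for summits within 100 bp, -7.68 for another peak within 10 kb and -1.02 for the MEF2 element. At a threshold of 60% they were 9.14 for summits within 100 bp, 0.653 for another peak and 0.0546 for the MEF2 element. At 50%, summits within 100 bp gave -12.1, the MEF2 element against distal peaks -1.61, and 4 motifs differed from distal peaks. Among the stronger 50% of peaks the differences were -0.0666 for summits within 100 bp, 4.28 for another peak and 0.156 for the MEF2 element, and 10 and 4 motifs differed from high-GC promoter and distal peaks. Another peak within 20 kb gave 2.93, the strict element 0.428, and the core 0.61 for summit against flank. With summit windows of 45 to 55% GC, the MEF2 element gave -1.08 against high-GC promoter peaks and 0.484 against distal peaks, and 0 and 2 motifs differed. Fewer peaks enter the last comparisons; otherwise the cause was not tested. The share of member genes with a mm10 optimal-set summit within 1 kb (74.9%) was 70.8% with the conservative set and 89.5% within 10 kb. With 1 replicate left out it ranged from 72.9 to 77.5%, and the low-GC minus high-GC difference in genes with a peak from -27.1 to -24.2 points.

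The lower frequency of peaks at low-GC genes, the larger share of alternative TSSs and the smaller share of upstream summits kept their direction and call under each alternative tried. Leaving out chromosome 11, or the olfactory and vomeronasal receptor genes, was chosen after the data were seen and changed no call. No paired analysis was possible because the series has 1 group. Depth is unknown, so a promoter without a peak is one not called in this list.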
